A study of Mus musculus with 6 samples.

Results

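The Hippo pathway core genes were described here in oocytes of aged mice that had or had not received aminophylline, a theophylline salt that inhibits phosphodiesterases. The 10 genes were taken by symbol from the deposited table of 25631 genes: the kinases Stk3, Stk4, Lats1 and Lats2, the adaptors Sav1, Mob1a and Mob1b, the scaffold-type regulator Rassf6, and the coactivators Yap1 and Wwtr1. No measured value entered the rule for the list, but it was chosen with earlier results of these data known. Mob1a and Rassf6 had also been picked out by the study from these same libraries, so their direction is not independent evidence. In these oocytes the 2 coactivators and Rassf6 had the highest levels per length among the members, at means of 12.1, 11.6 and 6.58 FPKM (fragments per kilobase of transcript, scaled to the mapped reads of the library), whereas Lats1 and Lats2 had the lowest, at 0.387 and 0.0896 FPKM. With transcript lengths from GENCODE in place of those behind the table, Stk3 ranked 2 and Rassf6 4, and Lats1 and Lats2 stayed lowest. Rassf6 was the only member that passed the test at the unadjusted level, lower with aminophylline, and no member passed it after adjustment over all genes.

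In the Hippo pathway, the kinases MST2 and MST1 (encoded by Stk3 and Stk4), held by the scaffold SAV1, phosphorylate the LATS kinases and their activators of the MOB1 family. Active LATS kinases phosphorylate YAP and TAZ (encoded by Yap1 and Wwtr1), which keeps these coactivators in the cytoplasm, bound by 14-3-3 proteins, or sends them to degradation. Unphosphorylated YAP and TAZ enter the nucleus and act with TEAD factors on growth genes such as Ccn1 and Ccn2. In the ovary the pathway is known for restraining follicle growth, and most of its regulation acts on phosphorylation and localisation, which RNA levels do not show.

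Oocytes of 14-month-old ICR females were compared between a control group (n = 3 libraries, untreated in the labels, drinking water only) and an aminophylline group (n = 3 libraries) given 4.0 mM of the drug in drinking water for 1 week and then water alone for 3 weeks. All females received equine chorionic gonadotropin, and the oocytes were released from large antral follicles by puncture. How many mice or oocytes made up a library is not given in the sources used here, nor whether the replicates were separate animals, so the p-values measure the spread between these libraries, which may be technical. In bulk RNA, fewer cells of a type and less RNA per cell cannot be told apart.

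The 6 libraries held 14112341 to 33641283 reads, control 2 being the shallowest. The oocyte markers summed to 17404 to 23831 FPKM in every library, against 15.7 to 23.5 FPKM for 10 granulosa and cumulus markers, of which 7 stayed under 1 FPKM in every library, and 0.812 to 1.90 FPKM for 8 theca and stroma markers. Endothelial and erythrocyte markers reached at most 6.82 and 0.585 FPKM in sum. The library control 1 stood apart in macrophage markers: 9 of 10 were highest there, and their sum was 239.6 FPKM against 81.1 to 101.8 FPKM in the other libraries, where C1qb made up nearly all of it. Lyz2, the lysozyme of macrophages, was at 66.4 FPKM in control 1 and at most 0.573 FPKM elsewhere.

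Promoter sequences are shown for members whose promoters hold or lack the core TEAD motif, since TEAD factors are the DNA-binding partners of YAP and TAZ, together with Ccn1, a known target of that complex. Promoter entries (GRCm38.p6) were found for 9 of the 10 members, all but Stk3. The 250 bases before the transcription start of each promoter entry are printed 5′ to 3′ on the gene's strand. The motif GGAATG, searched on both strands, is in capitals (its reverse complement reads CATTCC). The start of an entry can lie inside the RefSeq span of the gene. For Rassf6, whose span ends at 90640734, most of the printed window lies inside it.
Yap1 (chr9:8004597-8004846, minus strand): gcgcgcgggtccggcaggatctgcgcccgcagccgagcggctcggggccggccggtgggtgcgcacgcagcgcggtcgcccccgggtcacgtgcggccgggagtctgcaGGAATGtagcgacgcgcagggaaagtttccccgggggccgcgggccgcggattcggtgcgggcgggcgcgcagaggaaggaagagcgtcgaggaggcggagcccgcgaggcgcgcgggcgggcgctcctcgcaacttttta
Wwtr1 (chr3:57575911-57576160, minus strand): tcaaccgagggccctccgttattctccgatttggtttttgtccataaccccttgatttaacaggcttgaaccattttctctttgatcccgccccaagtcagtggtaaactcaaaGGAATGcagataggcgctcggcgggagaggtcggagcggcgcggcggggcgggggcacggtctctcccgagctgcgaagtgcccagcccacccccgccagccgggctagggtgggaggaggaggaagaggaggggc
Mob1a (chr6:83325789-83326038, plus strand): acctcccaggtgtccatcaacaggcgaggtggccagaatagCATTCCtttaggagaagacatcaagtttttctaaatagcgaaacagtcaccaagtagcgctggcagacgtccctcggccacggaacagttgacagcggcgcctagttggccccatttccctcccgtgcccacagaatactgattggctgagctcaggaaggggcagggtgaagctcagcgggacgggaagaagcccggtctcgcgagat
Rassf6 (chr5:90640528-90640777, minus strand): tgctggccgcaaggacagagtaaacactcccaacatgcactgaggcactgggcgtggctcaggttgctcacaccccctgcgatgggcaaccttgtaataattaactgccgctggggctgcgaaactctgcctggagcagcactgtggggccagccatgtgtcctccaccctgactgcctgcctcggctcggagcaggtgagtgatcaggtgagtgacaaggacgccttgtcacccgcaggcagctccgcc
Ccn1 (chr3:145649986-145650235, minus strand): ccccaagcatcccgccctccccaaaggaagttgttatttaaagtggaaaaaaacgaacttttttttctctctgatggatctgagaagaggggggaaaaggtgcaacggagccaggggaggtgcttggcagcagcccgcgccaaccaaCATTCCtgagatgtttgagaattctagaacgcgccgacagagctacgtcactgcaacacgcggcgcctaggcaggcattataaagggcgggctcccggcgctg

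Of the 9 members with an entry, 4 held the motif in these 250 bases, namely Sav1, Mob1a, Yap1 and Wwtr1, and 5 did not, Rassf6 among them. The motif occurs in 12.6% of the 32536 mouse promoters of the table. The motif began at -141 in Yap1, -136 in Wwtr1, -106 in Sav1, -209 in Mob1a and -103 in Ccn1, counted from the start of the entry. The Sav1 window (chr12:69987003-69987252, minus strand) lies wholly inside the RefSeq span of the gene, which ends at 69988141. Its position thus refers to a start internal to that span. Lats2 and Wwtr1 had 2 entries each, and the second of Wwtr1 held the motif at -170. The 11 promoter entries of the 9 members had a GC content of 44.8 to 79.2%, against a median of 52.4% over all promoters. The lowest value was from the second Lats2 entry, the first being at 74.0%, and the next lowest was Mob1a at 56.8%. A motif match describes the letters in this window and is not a measured binding site.

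**Figure D1:**
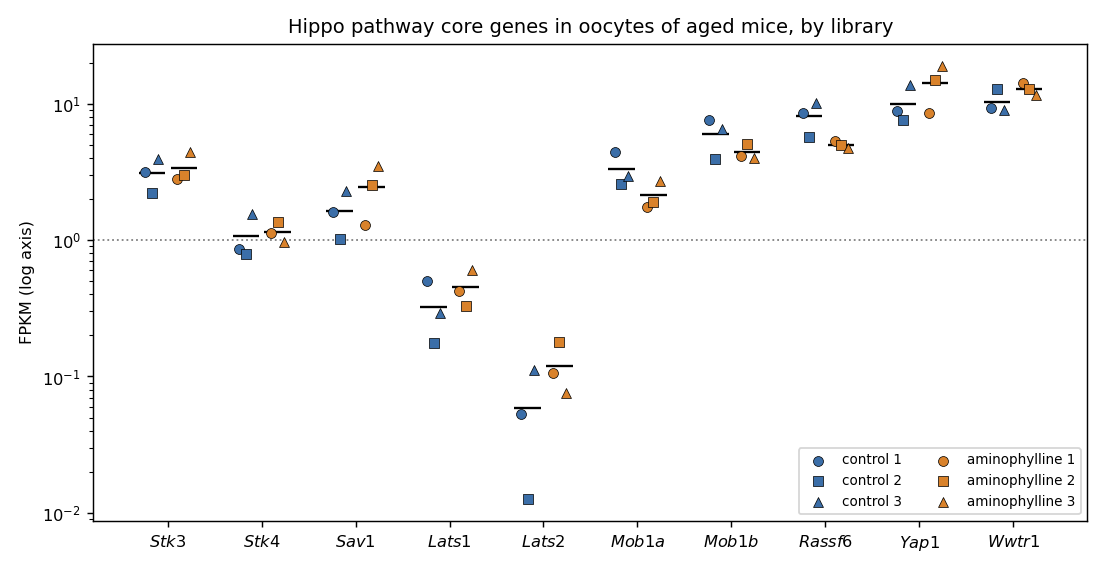
FPKM of the 10 core genes (log axis) in each of the 3 control and 3 aminophylline libraries. Symbols mark the replicate number, bars the group means, and the dotted line 1 FPKM. Only Rassf6 has all 3 aminophylline libraries below all 3 control libraries, and Lats1 and Lats2 lie below 1 FPKM throughout.

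None of the upstream kinases and their scaffold passed the test. Stk3, which encodes MST2, was at 3.14, 2.23 and 3.91 FPKM in control 1, 2 and 3 and at 2.81, 2.98 and 4.397 FPKM in aminophylline 1, 2 and 3. The groups overlapped and replicate 3 was the highest in each, with group means of 3.09 ± 0.839 and 3.40 ± 0.870 FPKM (SD, n = 3 each). The log2 fold change of Stk3 on the log2(FPKM + 1) scale, on which every fold change here is given, was 0.11 ± 0.24 (SE; limma adjusted p = 0.918). Stk4, which encodes MST1, was lower, at 0.861, 0.797 and 1.57 FPKM in the control libraries and 1.12, 1.36 and 0.971 FPKM in the aminophylline libraries. All 3 aminophylline values of Stk4 lay within the control range, and its log2 fold change was 0.07 (95% interval -0.38 to 0.51; limma adjusted p = 0.942), a sign that turned with 2 other scalings of the libraries.

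Sav1, whose product joins the MST and LATS kinases, was at 1.61, 1.03 and 2.27 FPKM in the control libraries and 1.29, 2.52 and 3.52 FPKM with aminophylline. Aminophylline 2 and 3 exceeded every control library while aminophylline 1 lay inside the control range. The means were 1.64 ± 0.625 and 2.44 ± 1.12 FPKM, a log2 fold change of 0.36 (95% interval -0.26 to 0.98; limma adjusted p = 0.759).

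The LATS kinases, the last step before YAP and TAZ, were scarce in every library. Lats1 was at 0.499, 0.177 and 0.292 FPKM in the control group and 0.422, 0.330 and 0.603 FPKM with aminophylline, which came from 121, 18 and 67 reads and from 86, 59 and 133 reads. Lats2 rested on 10, 1 and 20 reads in the control libraries and on 17, 25 and 13 reads in the aminophylline libraries, or 0.0126 to 0.179 FPKM. The groups overlapped for both genes. Neither reached 1 FPKM in 3 of the 6 libraries, the filter of the test, and exact two-sided permutation tests on their FPKM gave p = 0.4 for Lats1 and p = 0.3 for Lats2, where 0.1 is the smallest p that 3 libraries against 3 allow. The single read of Lats2 in control 2 lies under the floor of 3 reads, whereas every Lats1 value rests on at least 18 reads.

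Mob1a, an activator of the LATS kinases, was at 4.42, 2.60 and 2.96 FPKM in the control libraries and at 1.76, 1.91 and 2.73 FPKM with aminophylline. Aminophylline 1 and 2 were below every control library, but aminophylline 3 was above control 2, so the groups overlapped. The means were 3.33 ± 0.962 and 2.13 ± 0.522 FPKM, a log2 fold change of -0.46 ± 0.24 (SE; 95% interval -0.98 to 0.06; limma unadjusted p = 0.0783, adjusted p = 0.694). Control 1, the library with the macrophage markers, held the highest Mob1a value, and without it the log2 fold change was -0.28 (limma unadjusted p = 0.257); the part of those cells in the result was not tested.

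Mob1b, the paralog of Mob1a, was at 7.61, 3.96 and 6.52 FPKM in the control libraries and 4.14, 5.07 and 3.99 FPKM with aminophylline. All 3 aminophylline libraries lay within the control range, whose lowest value was again in the shallow control 2. The log2 fold change of Mob1b was -0.35 (95% interval -0.90 to 0.20, limma adjusted p = 0.735). Its highest value was in control 1, the library with the macrophage markers. Without that library the log2 fold change was -0.18 (limma unadjusted p = 0.504), and the part of those cells in the result was not tested. Any reads shared by these paralogs could be assigned to either in the counting, so their separate values are uncertain to that extent. How many reads they share was not examined.

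Rassf6, a RASSF-family protein known to bind the MST kinases, was the only member to pass the test at the unadjusted level. It was at 8.57, 5.73 and 10.2 FPKM in the control libraries and at 5.30, 5.01 and 4.74 FPKM in the aminophylline libraries. These values came from 692, 194 and 775 reads and from 359, 298 and 348 reads. The 3 aminophylline libraries lay close together and all below the lowest control library, which was control 2, while the control libraries were widely spread. The means were 8.15 ± 2.24 and 5.02 ± 0.279 FPKM (SD, n = 3 each), a log2 fold change of -0.57 ± 0.24 (SE; 95% interval -1.09 to -0.06; limma unadjusted p = 0.0331, adjusted p = 0.682). An exact two-sided permutation test gave p = 0.1, the smallest it can give. With 5 libraries the fold change stayed below 0, from -0.78 to -0.42, but the unadjusted limma call was lost without control 1 (adjusted p = 0.984, unadjusted p = 0.0835), control 3 (log2 fold change -0.42, unadjusted p = 0.106), aminophylline 1 (unadjusted p = 0.0578), aminophylline 2 (unadjusted p = 0.0799) or aminophylline 3 (unadjusted p = 0.0857). It was also lost in an unmoderated linear model (adjusted p = 0.763, unadjusted p = 0.0588). Rassf6 lies at chr5:90603076-90640734 in the RefSeq annotation of GRCm38.p6, a span of 37659 bases on the chromosome that also carries Mob1b.

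Yap1, which encodes the coactivator YAP, was at 8.88, 7.57 and 13.7 FPKM in the control libraries and at 8.52, 14.8 and 19.1 FPKM with aminophylline. Aminophylline 2 and 3 exceeded every control library, whereas aminophylline 1 lay inside the control range. The means were 10.04 ± 3.21 and 14.1 ± 5.30 FPKM, and the log2 fold change was 0.43 ± 0.30 (SE; 95% interval -0.23 to 1.08; limma unadjusted p = 0.180, adjusted p = 0.728). This interval extends past a doubling, so these libraries bound the change of Yap1 only loosely.

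Wwtr1, which encodes TAZ, was at 9.32, 12.8 and 9.02 FPKM in the control libraries and at 14.2, 12.8 and 11.7 FPKM with aminophylline. Control 2 was the highest control library here, although it was the lowest for Yap1, and it kept the groups overlapping. The means were 10.4 ± 2.11 and 12.9 ± 1.28 FPKM, and the log2 fold change was 0.30 ± 0.21 (SE; 95% interval -0.16 to 0.76; limma unadjusted p = 0.177, adjusted p = 0.728). Added together, a sum chosen after the values were seen, the coactivators reached 18.2 to 22.7 FPKM in the control libraries and 22.7 to 30.7 FPKM with aminophylline.

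**Figure D2:**
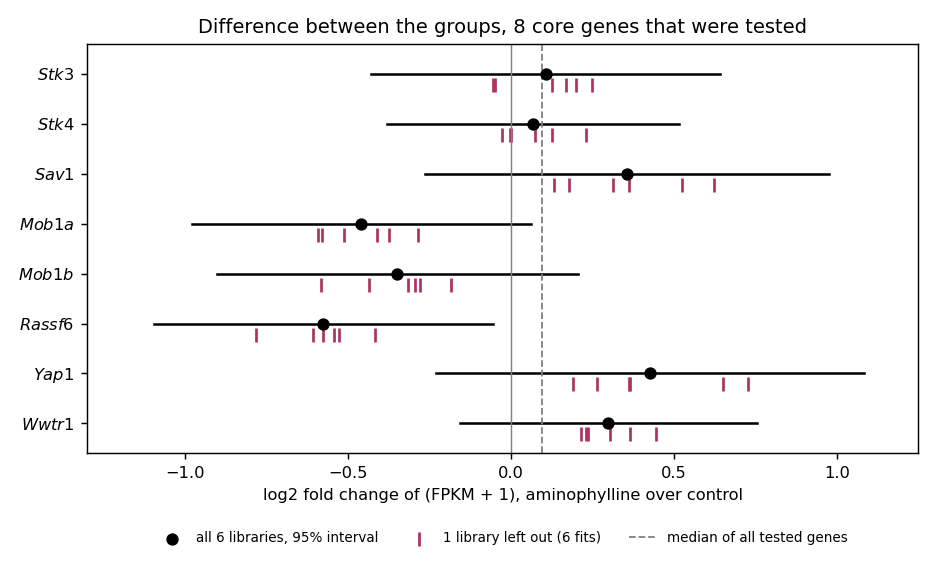
Log2 fold change of FPKM + 1, aminophylline over control, for the 8 core genes that were tested. Points and lines give the limma estimate and its 95% interval, ticks the estimates with 1 library left out, and the dashed line the median of all tested genes (0.10). The interval of Rassf6 alone, from -1.09 to -0.06, leaves out 0.

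Across the members, 8 of 10 passed the filter of 1 FPKM in at least 3 libraries and entered the limma fit with 10340 genes in all. Of these 8, 1 was lower at an unadjusted p under 0.05 (Rassf6), against 2.84% of all tested genes called lower, and 0 were higher, against 4.41% called higher. After adjustment 0 of 8 members passed 0.05 in limma, as did 0.0% of all tested genes. With voom on the recovered reads 0 of 8 passed as well, with 2 members at an unadjusted p under 0.05 there and 1 in limma on FPKM. At that unadjusted level voom called 290 of all 10340 tested genes higher and 546 lower. Rassf6 was also the only member whose groups did not overlap in the lower direction, which 4.96% of tested genes showed, and 0 members did so in the higher direction, against 7.51%. A count of 1 among 8 members is too small to be set apart from these shares. The fold change was above 0 for 5 of the 8 members (Stk3, Stk4, Sav1, Yap1 and Wwtr1), and their median log2 fold change of 0.09 was close to the 0.10 of all tested genes.

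Same-numbered libraries deviated together, so limma was also fitted with a block for the pairs. Rassf6 (limma adjusted p = 0.232, unadjusted p = 0.0131) and Mob1a (limma adjusted p = 0.335, unadjusted p = 0.0446) were then the 2 of 8 members called at the unadjusted level. After adjustment 0 of 8 members passed 0.05 in that fit, against 47 of all 10340 tested genes. In that fit 14.2% of all tested genes were called at the unadjusted level. For Yap1 the blocked limma fit gave an adjusted p of 0.361 and an unadjusted p of 0.0531. Leaving out control 2, the shallowest library, brought 4 of the 8 members past an unadjusted p of 0.05 in limma (Rassf6, Mob1a and Mob1b lower, Wwtr1 higher), and 15.6% of all tested genes were called in that fit. Leaving out control 1, aminophylline 2 or aminophylline 3 left 0 members, with 3.57%, 3.18% and 4.14% of all tested genes called. Yap1 alone was called, as higher, without control 3 (14.3% of all tested genes), and Yap1 and Sav1, both higher, without aminophylline 1 (6.81%).

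Levels between members were compared per length, as FPKM within each library. By mean FPKM the order was Yap1, Wwtr1, Rassf6, Mob1b, Stk3, Mob1a, Sav1, Stk4, Lats1 and Lats2, from the percentile 84.9 to the percentile 35.2 of all listed genes. Yap1 and Wwtr1 did not differ beyond their spread: Yap1 was the higher in 3 of 6 libraries (exact sign-flip permutation p = 0.969). The steps from Sav1 to Stk4, from Stk4 to Lats1 and from Lats1 to Lats2 each ran the same way in 6 of 6 libraries, with an exact p of 0.0313, the smallest that 6 libraries allow, and 0.0938 after adjustment over the 9 neighbouring pairs. None of the 9 steps passed an adjusted 0.05. The neighbours were picked by the same FPKM values that were then tested, so these p-values are not independent evidence for the order.

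Within paralog pairs, Stk3 exceeded Stk4 by 2.20 to 4.53 times and Lats1 exceeded Lats2 in 6 of 6 libraries. Mob1a stood at 0.376 to 0.683 of Mob1b in FPKM, and Yap1 at 0.591 to 1.63 of Wwtr1. The first 3 pairs had a within-library exact permutation p of 0.0313 (0.0417 adjusted over the 4 pairs), and the Yap1 and Wwtr1 pair 0.969. For Lats1 and Lats2, and for Yap1 and Wwtr1, these are the same tests as among the neighbouring pairs. They are adjusted here over 4 pairs in place of 9. The ratio of Lats1 to Lats2 in control 2 rests on 1 read of Lats2, so it is only known to lie between 2.22 and 586.6 (exact 95% binomial interval, counting error only).

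These comparisons between genes depend on the transcript length by which the authors divided. The length behind Stk3 was 11279 bases, 3.87 times the 2914 bases of its longest protein-coding GENCODE transcript, and that behind Mob1b was 3171 bases against 8967. With the GENCODE lengths, an alternative added after the values were seen, Stk3 moved from rank 5 to rank 2, at 12.6 FPKM, and Mob1b from rank 4 to rank 7, at 1.84 FPKM. Mob1b was then no longer above Mob1a (mean log2 difference of Mob1a from Mob1b 0.12 in place of -0.74; exact permutation p = 0.25). The lead of Stk3 over Stk4 and of Lats1 over Lats2 kept its direction, at mean log2 differences of 2.64 and 0.33.

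**Figure D3:**
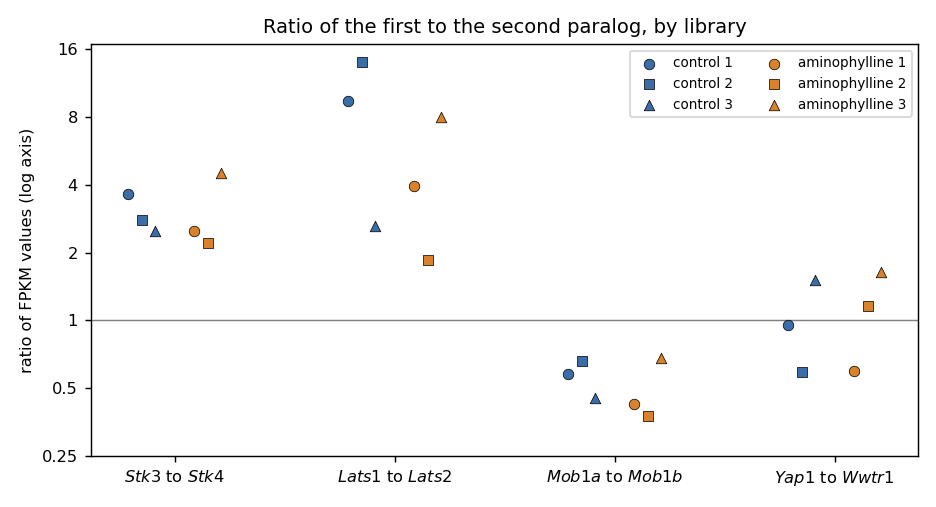
Ratio of FPKM values within 4 paralog pairs (log axis) in the 3 control and 3 aminophylline libraries, symbols marking the replicate number. Stk3 to Stk4 lies between 2.20 and 4.53 and Mob1a to Mob1b between 0.376 and 0.683 in all 6 libraries, and the groups overlap in each pair.

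The balance within the pairs was not shown to differ between the groups. The log2 ratio of FPKM + 1 differed between aminophylline and control by 0.04 for Stk3 to Stk4, 0.06 for Lats1 to Lats2, -0.11 for Mob1a to Mob1b and 0.13 for Yap1 to Wwtr1. Exact permutation tests gave p = 1, 0.7, 0.8 and 0.7 in that order, each 1 after adjustment over the 4 pairs. With 3 libraries a group these tests cannot go below 0.1, and they do not show that the ratios were alike.

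Members differed in which libraries were high. Within the control group 6 of 10 members were highest in control 3, as were 51.2% of all tested genes, and within the aminophylline group 5 of 10 were highest in aminophylline 3, against 46.5%. Over the 6 libraries Yap1 ran most closely with Sav1 among the members (Pearson r = 0.987 on log2(FPKM + 1)), and Rassf6 ran with Mob1b (r = 0.851) and opposite to Wwtr1 (r = -0.880). These are descriptions over 6 libraries that were each scaled to their own depth, and 1028 of 10340 tested genes had an r over 0.9 with Yap1. The closest of all were Kcnh1, Ankrd26 and Lars2 for Yap1 (r of 0.9997, 0.998 and 0.998) and A530046M15Rik, Ubxn2b and Efcab11 for Rassf6 (r of 0.991, 0.989 and 0.988).

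The wider pathway was read from lists of its other genes, 76 of which were analysed and 38 tested. Of these, 2 were higher and 2 lower at an unadjusted p under 0.05 in limma, against 4.41% and 2.84% of all tested genes, and 0 passed after adjustment. The 4 calls became 0 without aminophylline 2, 1 without control 1 or aminophylline 3, and 7 without control 3, fits in which the share over all tested genes moved as well. Among 8 tested upstream activators of the kinases, 1 was higher: Taok3, a TAO kinase that phosphorylates MST kinases, which the study had also drawn from these libraries. Taok3 was at 1.68, 2.01 and 1.59 FPKM in the control libraries and 2.09, 3.57 and 4.18 FPKM with aminophylline, with no overlap (log2 fold change 0.60; limma unadjusted p = 0.0282, adjusted p = 0.682). The unadjusted p of Taok3 rose to between 0.0562 and 0.130 in the limma fits without control 1, control 3, aminophylline 2 or aminophylline 3. The most abundant of the activators was Map4k5, a kinase that can phosphorylate LATS, at 19.0 ± 9.24 and 23.1 ± 9.88 FPKM.

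Among 8 tested inhibitors of the kinase cassette, which include the STRIPAK phosphatase complex, 1 was higher, against 4.41% of all tested genes. A count of 1 is too small to be set apart from that share. The gene was Strn4, a STRIPAK scaffold, at 3.28 ± 1.49 and 5.55 ± 1.35 FPKM (log2 fold change 0.64, limma unadjusted p = 0.0420, adjusted p = 0.682, groups overlapping). The call of Strn4 was lost without control 1, control 2, aminophylline 2 or aminophylline 3, at log2 fold changes of 0.50 to 0.56 and unadjusted limma p-values of 0.108 to 0.139. With every library kept, it was also lost after rescaling to TPM (limma adjusted p = 0.889, unadjusted p = 0.0792), without the filter (unadjusted p = 0.0669) and in the unmoderated model (unadjusted p = 0.120). Mob4, another STRIPAK subunit, was the most abundant at 138.3 ± 19.9 and 153.2 ± 3.14 FPKM. The NDR kinases Stk38 and Stk38l, close relatives of LATS that can also phosphorylate YAP, summed to 6.56 ± 2.32 and 7.36 ± 1.81 FPKM, against 0.381 ± 0.182 and 0.572 ± 0.0924 FPKM for Lats1 and Lats2 together. Neither NDR kinase passed the test.

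Of the other RASSF genes, 7 of 9 were analysed, 2 were tested and 0 passed an unadjusted p of 0.05 in limma. Rassf3 was the highest at 9.90 ± 2.34 and 13.3 ± 4.08 FPKM. Rassf4, also drawn by the study, rested on 28, 0 and 2 reads in the control libraries and 0, 0 and 1 read with aminophylline, so nearly all of its reads were in control 1, the library with the macrophage markers.

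Among 11 tested genes for the retention and turnover of YAP and TAZ, 2 were lower, against 2.84% of all tested genes, both encoding 14-3-3 proteins, which bind phosphorylated YAP but also many other proteins. Ywhaq, the most abundant gene of the list, was at 203.1, 178.0 and 203.3 FPKM in the control libraries and 151.9, 138.0 and 154.3 FPKM with aminophylline, with no overlap (log2 fold change -0.39; limma unadjusted p = 0.0224, adjusted p = 0.682). Ywhae was at 89.9 ± 25.6 and 59.1 ± 5.93 FPKM (log2 fold change -0.56; limma unadjusted p = 0.0272, adjusted p = 0.682), with overlapping groups. Without any single aminophylline library the unadjusted limma p of Ywhaq was 0.0543 to 0.0986, and that of Ywhae was 0.0705 to 0.117 without control 1, control 3, aminophylline 1 or aminophylline 2. The other 14-3-3 genes did not pass the test.

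**Figure D4:**
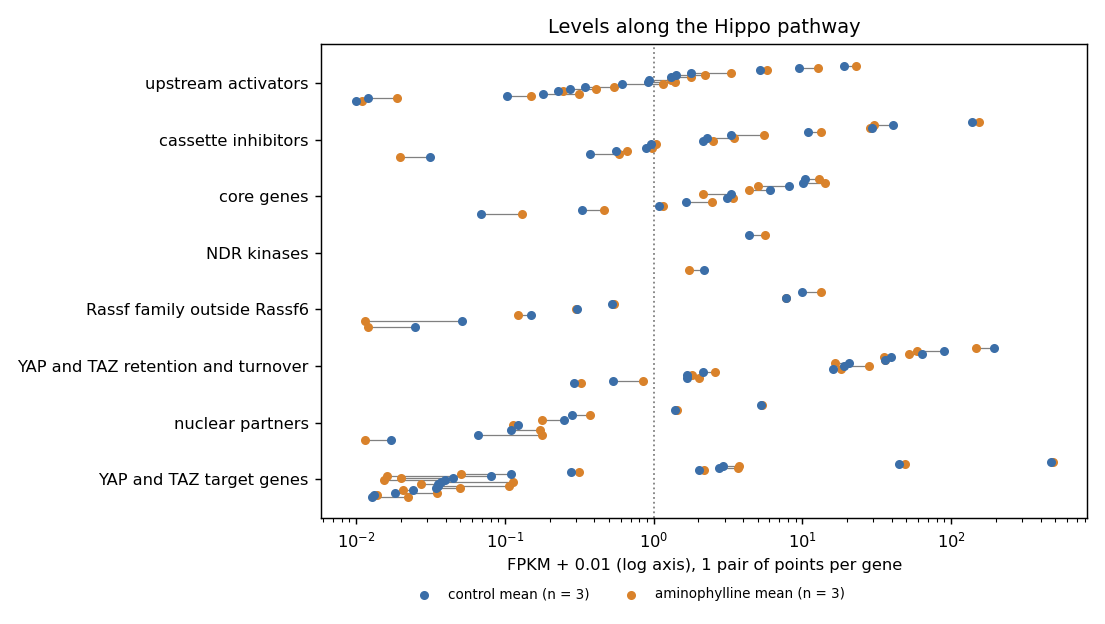
Mean FPKM + 0.01 (log axis) in the control (n = 3) and aminophylline (n = 3) libraries for each analysed gene of the pathway, grouped by role. A line joins the group means of a gene and the dotted line marks 1 FPKM. Of the 18 target genes, 13 lie under 1 FPKM, as do 6 of the 8 nuclear partners.

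Of the 8 nuclear partners, 6 were under 1 FPKM in every library. For scale, 9730 to 10476 of all 25631 listed genes reached 1 FPKM in a given library, so most listed genes did not. Tead2 was the only TEAD gene above 1 FPKM on average, at 1.38 ± 0.0882 and 1.42 ± 0.431 FPKM, and the TEAD genes summed to 1.65 ± 0.257 and 1.85 ± 0.521 FPKM, below Yap1 or Wwtr1 alone. Tead1 and Tead3 were at most 0.190 and 0.188 FPKM in any library. Tead4 rested on 4, 2 and 8 control reads and 25, 8 and 10 reads with aminophylline. Its FPKM values were all higher with aminophylline, without overlap, which 7.51% of all tested genes showed. The most abundant partner was Vgll1, a TEAD cofactor, at 5.22 ± 1.48 and 5.37 ± 1.51 FPKM. Of 2 tested partners 0 passed an unadjusted p of 0.05 in limma.

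Among the genes known as YAP and TAZ targets, 18 of 22 were analysed, 13 of these were under 1 FPKM in every library, and 0 of the 5 tested passed an unadjusted p of 0.05 in limma. Ccn1, whose promoter is printed above and holds the motif, was counted 6, 0 and 0 times among the control reads and 0, 0 and 1 times with aminophylline. Ccn2 had 2, 0 and 0 reads and 3, 1 and 1 reads, and Amotl2 had 0, 2 and 2 reads and 1, 3 and 0 reads. A count of 3 reads corresponds to an RPM (reads scaled to library depth) of 0.0892 to 0.213 in these libraries, and at these counts no difference in Ccn1, Ccn2 or Amotl2 was detectable. Myof, a membrane-repair protein gene named here after its values were seen, had 5, 4 and 5 control reads and 16, 13 and 35 with aminophylline, without overlap. Of all tested genes, 7.51% did not overlap in that direction. Myof was below the filter, and in the limma fit without a filter it had an unadjusted p under 0.05 but no adjusted one. That fit called 917 of 25631 genes higher at the unadjusted level. Of the wider lists it called 3 genes higher: Myof, Map4k1 and Taok3. Ankrd1 was not analysed here. The most abundant gene of the list was Birc5, which encodes survivin and is also part of the chromosomal passenger complex of dividing oocytes, at 472.4 ± 49.7 and 482.2 ± 31.8 FPKM.

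In the deposited annotation, 9 of the 10 members carry the KEGG term for Hippo signaling (Stk4 does not) and 9 carry the Reactome term (Rassf6 does not). Of the 145 annotated KEGG genes, 79 were tested, 2 were higher (Llgl2 and Ctnna1) and 4 lower (Rassf6, Ywhaq, Ywhae and Bmp5) at an unadjusted p under 0.05 in limma, against 4.41% and 2.84% of all tested genes, and 0 passed after adjustment. Their median log2 fold change was 0.05, against 0.10 over all tested genes. The 6 calls became 0 without aminophylline 2, 1 without aminophylline 3, 2 without control 1, 11 without aminophylline 1, and 13 without control 2 or control 3, and the shares over all tested genes in these fits, given above for the members, ranged from 3.18% to 15.6%. With the replicate block 14 of the 79 were called at the unadjusted level, 8 higher and 6 lower, against 14.2% of all tested genes.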

How the data were processed

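RNA of 6 oocyte libraries (3 control, 3 aminophylline) was sequenced by the study; TRIzol and the VAHTS Universal V6 kit were used. The deposited table holds FPKM values that the authors computed per gene; the build is GRCm38 (mm10) per the submitters' processing notes, and the aligner, counter and strand setting are not given in the sources used here. Members and gene lists were chosen with earlier results of these data known.

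Whole reads were recovered from the ratios of FPKM values between libraries for 100% of the 22583 genes detected in 2 or more libraries (tolerance 0.001 reads), which gave the depths. The main test was limma 3.58.1 (R 4.3.3), two-sided, with a variance trend, on log2(FPKM + 1). It covered genes of at least 1 FPKM in at least 3 libraries, with Benjamini-Hochberg adjustment over 10340 genes. FPKM is not a count, and as 1 is added to each value, the fold changes understate those of low genes. On simulated data it recovered 194 of 194 genes changed 4-fold, with 12 others called among 10310 tested. The simulated reads had the same dispersion for every gene and no library-wide effects. That result therefore does not show how well smaller changes would be found in these libraries. Exact permutation tests served for ratios and single values. The limma intervals rest on the spread between libraries, and the binomial interval and the floors cover counting error only.

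Same-numbered libraries deviated together from their group means (r = 0.138, 0.140 and 0.552), which meets the rule used here for treating them as pairs, although control 2 and aminophylline 1 reached 0.423; the labels state no shared preparation. Named genes were all members, list genes with an unadjusted p under 0.05, the most abundant gene of each list, and Ccn1, Ccn2, Ankrd1, Amotl2, Tead1 to Tead4, Rassf4 and Taok3. Alternatives covered the pseudocount, filter, scaling, variance model, block, library weights, voom and each library left out.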

Additional observations from a re-analysis of the deposited data

How the results depend on the processing

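The direction of Rassf6, Mob1a, Mob1b, Sav1, Yap1 and Wwtr1 was the same in every fit run. The number of core genes with an unadjusted p under 0.05 was 1 in the reported fit and with another pseudocount, other filters and rescaling to TPM. It was 2 with median centring, library weights, voom or the replicate block, 0 with the unmoderated model, and 0 to 4 with 1 library left out. Calls over all 10340 tested genes moved as well, from 456 higher and 294 lower in the reported fit. They were 281 higher and 502 lower with median centring, and 1398 higher and 613 lower with library weights. Voom called 290 higher and 546 lower, the replicate block 1022 and 445, and the unmoderated model 407 and 270. The counts for the wider lists were 4 as reported, 2 with a mean FPKM of at least 5, 1 unmoderated, and 0 to 7 with 1 library left out. The KEGG count of 6 became 1 unmoderated, 14 with the replicate block, 14 with library weights, and 0 to 13 with 1 library left out. Apart from Mob1a and these counts, the block changed no call of a core gene. Stk4 turned to -0.0153 with median centring and to -0.00155 with voom; left-out fits ran from -0.0273 to 0.23 for Stk4 and from -0.0535 to 0.248 for Stk3. The group difference of the Lats1 to Lats2 ratio turned to -0.0648 with a pseudocount of 0.1, and left-out values ran from -0.0465 to 0.154, against -0.177 to 0.171 for Stk3 to Stk4, -0.297 to 0.0235 for Mob1a to Mob1b and -0.183 to 0.497 for Yap1 to Wwtr1. With GENCODE lengths, chosen after seeing the data, the log2 difference of Mob1a from Mob1b turned from -0.74 to 0.12 and that of Yap1 from Wwtr1 from -0.00314 to 0.0678. The cause of these shifts was not tested beyond the construction of each alternative. Among all genes called at the unadjusted level, 60.8% were higher in the reported fit, 49.1% after rescaling to TPM, 35.9% after median centring and 34.7% with voom. Depth limits Lats2, Tead4 and targets with a few reads, and 3 libraries a group limit every test.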
